A study of Homo sapiens with 6 samples.

Results

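Homologous recombination copies an intact sister strand to mend a broken chromosome, and the Fanconi pathway opens DNA crosslinks so that the same machinery can finish the repair. The 39 genes described here cover a part of both routes, not all of their genes. They also include damage checkpoint genes, which hold the cell cycle while repair proceeds, and POLQ, of another repair route. They were taken by gene symbol from a fixed list, each matched to an Ensembl identifier, and make up 39 of the 67140 identifiers in the count table and 39 of the 19254 that passed the filter on low counts. The rule uses names and no measured value, but the members were chosen with earlier results of these data known. Every one of the 39 was tested, with at least 293 counts in each sample.

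KYSE150, an established human cell line of esophageal squamous cell carcinoma (ESCC), carried either a control short hairpin (shCtrl, 3 samples) or 1 hairpin against AC007128.1, a long noncoding RNA (shAC007128.1, 3 samples). All 6 samples were grown in RPMI 1640 with fetal bovine serum and profiled by poly-A RNA sequencing, and the study's methods describe lentiviral delivery with antibiotic selection. The labels' treatment text names the AC007128.1 hairpin for every sample, so the groups follow the sample titles and descriptions. With 1 hairpin per group, an effect of losing the target cannot be told apart from another effect of that hairpin, and since nothing states that replicates were separate cultures, p-values measure only the spread between these samples.

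Repair by recombination starts when a sensor complex finds the break and nucleases cut back one strand. BRCA1, PALB2 and BRCA2 then prepare the exposed strand to invade the sister, helped by strand exchange factors, and helicases later separate the joined molecules. In the Fanconi pathway a core complex attaches ubiquitin to FANCD2 and FANCI, which clamp the DNA beside the crosslink. Recombination needs a sister chromatid, and many of these genes are known to be transcribed mostly in S and G2 phase, where E2F transcription factors act on their promoters.

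Totals ran from 65140326 to 78610457 counts in shCtrl and from 55764405 to 60158244 in shAC007128.1. Correlations of log2 CPM (counts per 1000000, on library sizes scaled by TMM) were 0.979 to 0.981 within shCtrl, 0.969 to 0.973 within shAC007128.1 and 0.94 to 0.949 between the groups. AC007128.1 itself had 69, 33 and 53 counts in shCtrl and 18, 37 and 15 in shAC007128.1. These groups overlapped, the fitted log2 change being -0.77 with a standard error of 0.51 (edgeR adjusted p = 0.271, exact two-sided permutation p = 0.2 where 0.1 is the smallest possible), so the hairpin's target did not pass the test. Squamous markers (KRT5, KRT14, TP63 and 7 others) all passed the filter on low counts, SOX2 at only 0.33–0.59 CPM in shCtrl. Their CPM summed to 2017–2040 in shCtrl and 2555–3405 in shAC007128.1, but they did not move together. At any fold 5 of 10 rose (beside 21% of all tested genes) and 1 fell (beside 19.8%), while 4 did not pass. The one that fell was DSG3, at -1.09 ± 0.09. Fibroblast markers summed to 15.3–16.1 and 20.9–23.9 CPM, leukocyte markers to 3.73–4.98 and 3.92–4.95, and endothelial markers to 2.16–3.11 and 0.587–2.02. The part of these marker genes in the results was not tested.

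Promoter stretches are printed for the members that gained most among those whose window held an E2F core, for those that held a core and did not rise, and for FANCM, which rose and held none. RefSeq windows on GRCh38.p14 covered 250 bases before to 50 after the transcription start and were found for 34 of the 39 members. The E2F core searched on both strands was TTCCCGC (as in RAD54L), TTGGCGC (as in FANCA, on the other strand), TTCGCGC (as in EXO1) or a last spelling, TTGCCGC. Capitals mark the core in 30 bases read along each gene's own strand, 5′ to 3′, and in FANCM, where 100 bases upstream of the start are shown, they mark CCAAT, a box that does not overlap a core. Of the 12 members called higher that held a core, the 6 of largest log2 fold change come first. FANCC, FANCE, RAD51D and FANCF, all those that held a core and did not rise, come next, then FANCM.
POLQ, chr3:121545957-121545986, minus strand: gtttgaagactgGCGGGAAgatgtccgcag
RAD54L, chr1:46247627-46247656, plus strand: ggcgcagcactaTTCCCGCctcttccttgg
BRIP1, chr17:61863509-61863538, minus strand: agggggcgggagGCGGGAAttcgtctcggg
EXO1, chr1:241848197-241848226, plus strand: aaaggtcagcctTTCGCGCgctgtgtaggc
RAD51AP1, chr12:4538857-4538886, plus strand: gtctggttttggGCGGGAAttgaaaccgcc
FANCA, chr16:89816609-89816638, minus strand: ccggggctgtagGCGCCAAggccatgtccg
FANCC, chr9:95317737-95317766, minus strand: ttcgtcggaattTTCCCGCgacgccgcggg
FANCE, chr6:35452344-35452373, plus strand: ctttccgacagcGCGGGAAcggctgcggct
RAD51D, chr17:35119811-35119840, minus strand: acccggcgggcgggctctgggcGCGGGAAt
FANCF, chr11:22625805-22625834, minus strand: ggaagtagggccTTCGCGCacctcatggaa
FANCM, chr14:45135830-45135929, plus strand: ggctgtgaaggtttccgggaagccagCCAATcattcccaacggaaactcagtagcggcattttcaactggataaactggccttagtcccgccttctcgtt

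The printed stretches of FANCC and FANCM lie outside annotated exons, and the other 9 overlap an annotated exon. Read side by side, POLQ, BRIP1, RAD51AP1, FANCE and RAD51D carry the same letters GCGGGAA, although their transcripts moved in different ways. A match of letters describes the sequence and does not show that a factor binds there.

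Most of the 39 genes were higher in shAC007128.1. 19 of 39 (48.7%) were called higher, meaning that the edgeR adjusted p did not exceed 0.05 and the log2 fold change reached 1, beside 5.57% of all tested genes. None was called lower, beside 10.1% of all tested genes, and none was by DESeq2, by limma-voom or at an unadjusted p under 0.05 with the same fold limit. At any fold, 25 members rose (64.1%, beside 21% of all tested genes) and 2 fell, RAD51D and FANCF (beside 19.8%), while 12 did not pass. The median log2 fold change was 0.96 against -0.02 over all tested genes. Since the members were chosen with earlier results known, these shares and medians describe the list and do not test it. In 25 members every shAC007128.1 sample lay above every shCtrl sample (27% of all tested genes), in 4 every one lay below (28.2%), and in 10 the groups overlapped. Summed over the 39 genes, CPM ran from 1296 to 1330 in shCtrl and from 1968 to 2253 in shAC007128.1. In bulk RNA, more cells in the phases that transcribe these genes and more RNA per cell cannot be told apart.

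**Figure D1:**
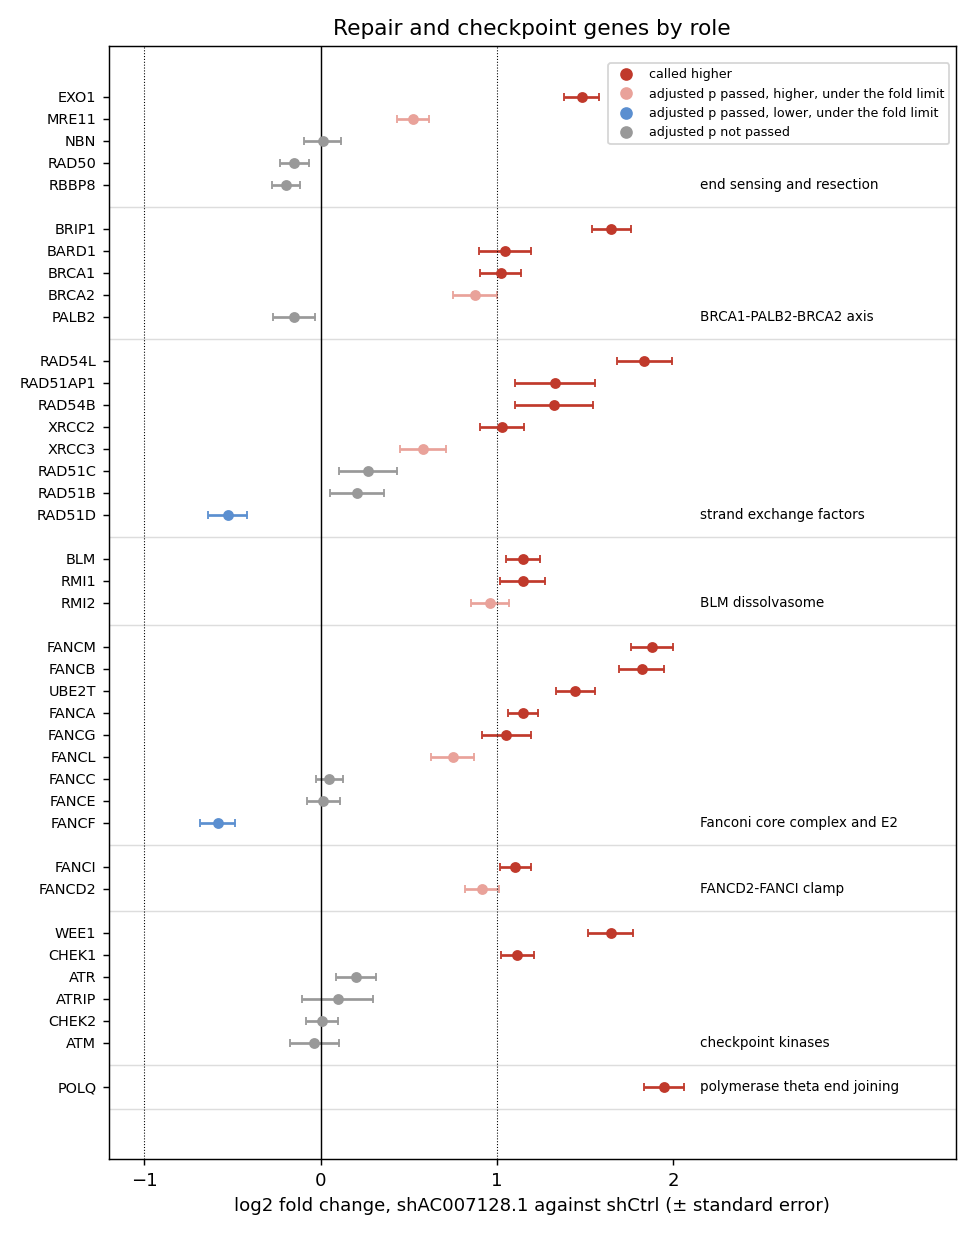
Log2 fold change of shAC007128.1 against shCtrl (x axis) for each of the 39 genes (y axis), grouped by role, with points as edgeR estimates and bars as standard errors; dotted lines mark -1 and 1. Red points are the 19 genes called higher, pale red the 6 that rose by less, blue the 2 that fell (RAD51D and FANCF) and grey the 12 that did not pass.

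POLQ, the polymerase of theta-mediated end joining, a route used when recombination is not available, moved most of all 39 genes. It had 13.6, 15.3 and 15.5 CPM in the shCtrl samples and 50.1, 59.7 and 61.5 CPM in the shAC007128.1 samples. All 3 treated values were over 3 times the highest control value. The log2 fold change was 1.95 ± 0.11, 3.86-fold, with an edgeR adjusted p of 4.29e-05.

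Of the 5 genes that sense and cut back broken ends, EXO1 and MRE11 rose at any fold, beside 21% of all tested genes. The other 3 did not pass, so the median was 0.01. EXO1, the exonuclease of long-range resection, had 17.3, 17.2 and 17.6 CPM in shCtrl and 43.4, 52.5 and 49.3 CPM in shAC007128.1, a log2 fold change of 1.48 ± 0.10 (edgeR adjusted p = 6.59e-05). The control values were nearly the same and all treated values stood well above them. MRE11, the nuclease of the sensor complex, had 57.8, 56.9 and 57.4 CPM against 75.8, 80.5 and 91.0 CPM, also without overlap but by a smaller step of 0.52 ± 0.09 (edgeR adjusted p = 0.00317).

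The partners of MRE11 did not pass the test. RAD50, the ATPase that tethers the ends, had 101.8, 110.1 and 106.4 CPM in shCtrl and 100.6, 88.1 and 98.3 CPM in shAC007128.1. Its treated samples lay just under the controls, with a log2 fold change of -0.15 ± 0.08 that did not pass (edgeR adjusted p = 0.184). RBBP8, also named CtIP, which starts resection together with MRE11, had 87.3, 87.6 and 82.7 CPM against 70.9, 73.7 and 80.4 CPM and a log2 fold change of -0.20 ± 0.08 (edgeR adjusted p = 0.0896). Here too the groups were apart but close, and the test was not passed. Of all tested genes 28.2% lay apart in this direction. NBN, the adaptor that brings ATM to the complex, overlapped at 89.5, 92.2 and 89.8 CPM against 90.3, 79.3 and 104.1 CPM. RAD50 shares 76.9% of its exonic bases with a read-through gene on the same strand, so its counts are uncertain.

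In the BRCA axis, 4 of 5 genes rose (beside 21% of all tested genes) and 3 were called higher (beside 5.57%). The median log2 fold change was 1.02. BRIP1, a helicase that binds BRCA1, had 15.0, 15.0 and 15.1 CPM in shCtrl and 42.6, 45.6 and 53.6 CPM in shAC007128.1. The controls were almost equal and every treated sample was higher by more than the whole spread of the group, at 1.65 ± 0.11 (edgeR adjusted p = 6.47e-05). BRCA1, the ubiquitin ligase subunit that commits breaks to recombination, had 30.2, 36.4 and 30.5 CPM against 68.0, 70.7 and 58.4 CPM, at 1.02 ± 0.12 (edgeR adjusted p = 0.000526). Its estimate sat at the fold limit and fell between 0.95 and 0.99 under 8 of 15 other settings, so BRCA1 was higher in each but the call was not kept in all.

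BARD1, the obligate partner of BRCA1, rose by 1.05 ± 0.15 from 13.2–15.4 CPM to 24.9–34.8 CPM (edgeR adjusted p = 0.00131), and BRCA2, the mediator of strand invasion, rose by 0.87 ± 0.12 from 34.0–39.6 CPM to 56.2–75.0 CPM (edgeR adjusted p = 0.00144). PALB2, which bridges BRCA1 and BRCA2, was the member of the axis that did not pass. It had 31.8, 30.4 and 30.3 CPM in shCtrl and 25.5, 25.3 and 32.5 CPM in shAC007128.1. Replicates 1 and 2 of the treated group lay under the controls and replicate 3 above them, and the log2 fold change of -0.15 ± 0.12 did not pass (edgeR adjusted p = 0.359). Without treated replicate 3 the adjusted p of PALB2 passed, at a log2 fold change of -0.29.

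Of the 8 strand exchange factors 5 rose (beside 21% of all tested genes), 4 of them called higher (beside 5.57%). RAD51D alone fell (beside 19.8%), and the median log2 fold change was 0.80. The paralogs RAD51B, RAD51C, RAD51D and XRCC2 form one complex that assists strand exchange, and RAD51C forms another with XRCC3. XRCC2 had 16.9, 17.8 and 17.7 CPM in shCtrl and 33.1, 32.1 and 41.6 CPM in shAC007128.1, at 1.03 ± 0.12 (edgeR adjusted p = 0.000668). RAD51D went the other way, with 25.8, 26.7 and 27.3 CPM against 17.4, 20.9 and 17.1 CPM, at -0.53 ± 0.11 (edgeR adjusted p = 0.00801). Neither gene had overlapping groups, where 27% of all tested genes lay apart and higher and 28.2% apart and lower. RAD51B overlapped at 5.34, 4.92 and 4.76 CPM against 5.21, 5.66 and 6.45 CPM, and RAD51C at 12.9, 15.4 and 10.5 CPM against 16.0, 14.0 and 16.8 CPM, and neither passed (edgeR adjusted p = 0.333 and 0.239). XRCC3 rose by 0.58 ± 0.13, from 26.2, 27.2 and 29.9 CPM to 41.1, 48.0 and 35.3 CPM (edgeR adjusted p = 0.01). It shares 76.7% of its exonic bases with KLC1, which itself rose by 0.82, so the value of XRCC3 is uncertain.

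RAD54L, RAD54B and RAD51AP1, which act at strand invasion, were all called higher, beside 5.57% of all tested genes. RAD54L, a motor that drives strand exchange, had 11.1, 12.8 and 13.8 CPM in shCtrl and 51.3, 36.4 and 46.8 CPM in shAC007128.1, at 1.83 ± 0.16 (edgeR adjusted p = 0.000154). Treated replicate 2 was the lowest of its group and still well over the controls. RAD54B, its relative, rose by 1.32 ± 0.22 from 4.44–7.71 CPM to 14.0–18.0 CPM (edgeR adjusted p = 0.00288), but shares 66% of its exonic bases with FSBP, which rose by 0.94. RAD51AP1, which stimulates strand invasion, had 19.6, 23.0 and 22.2 CPM against 48.0, 40.0 and 74.7 CPM, at 1.33 ± 0.22 (edgeR adjusted p = 0.00308). Treated replicate 3 was far above the other treated samples, and without it the log2 fold change was 1.02.

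BLM, RMI1 and RMI2, which with a topoisomerase undo crossed strands, rose together. BLM, the helicase, had 20.9, 21.7 and 21.8 CPM in shCtrl and 48.1, 43.3 and 51.5 CPM in shAC007128.1 (1.15 ± 0.10, edgeR adjusted p = 0.000143). RMI1, its scaffold, had 24.7, 24.5 and 24.4 CPM against 47.8, 50.2 and 64.8 CPM (1.14 ± 0.13, edgeR adjusted p = 0.000495). RMI2, the smallest subunit, rose from 20.7–21.7 CPM to 37.5–46.4 CPM, and its 0.96 ± 0.11 missed only the fold limit. For all 3 genes each treated sample exceeded each control, as in 27% of all tested genes.

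**Figure D2:**
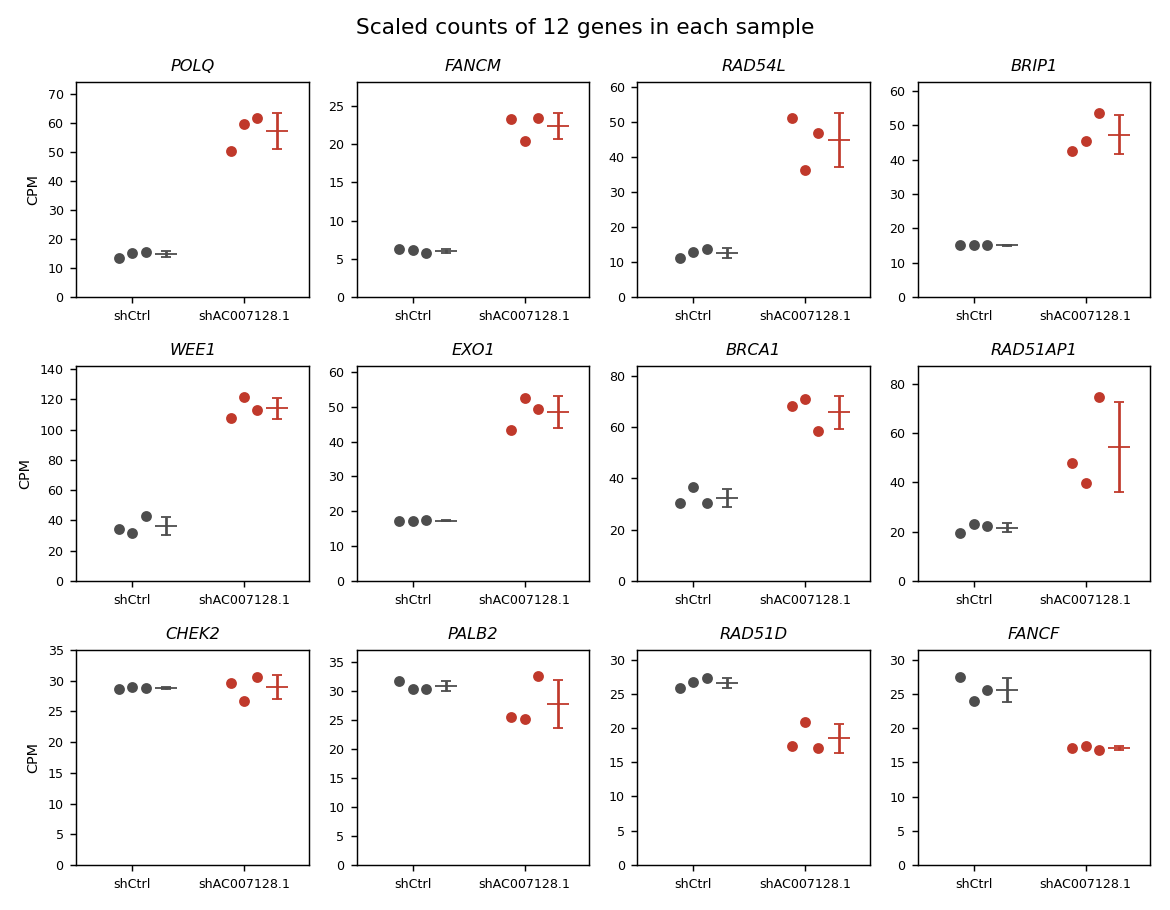
CPM on TMM-scaled library sizes (y axes, linear from 0) for 12 of the genes in the 3 shCtrl (grey) and 3 shAC007128.1 samples (red), with horizontal lines for means and bars for ± 1 SD (n = 3). POLQ, FANCM, RAD54L, BRIP1, WEE1, EXO1, BRCA1 and RAD51AP1 lie apart and higher, CHEK2 and PALB2 overlap, and RAD51D and FANCF lie apart and lower.

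Within the Fanconi core complex and its ubiquitin-conjugating enzyme, 6 of 9 genes rose, beside 21% of all tested genes. Among the 6, 5 were called higher (beside 5.57%). Of the 9, 1 fell (beside 19.8%), and the median log2 fold change was 1.05. FANCM, the translocase that anchors the complex on DNA, had 6.25, 6.19 and 5.78 CPM in shCtrl and 23.2, 20.4 and 23.4 CPM in shAC007128.1, at 1.88 ± 0.12 (edgeR adjusted p = 5e-05). FANCB, of the catalytic module, had 6.18, 6.84 and 6.56 CPM against 21.8, 21.1 and 26.2 CPM, at 1.82 ± 0.13 (edgeR adjusted p = 8.27e-05). Both had under 7 CPM in every control and gained over 3-fold, with wide gaps between the groups. UBE2T, the enzyme that passes ubiquitin to FANCD2, rose by 1.44 ± 0.11 from 20.5–22.7 CPM to 52.9–66.6 CPM (edgeR adjusted p = 0.000107). FANCA rose by 1.15 ± 0.09, from 25.5–29.4 CPM to 60.5–61.9 CPM, and its partner FANCG by 1.05 ± 0.14, from 17.8–24.8 CPM to 42.8–49.4 CPM. FANCL, the ligase itself, rose less, by 0.75 ± 0.12, from 21.6–24.5 CPM to 34.1–44.2 CPM.

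FANCC, FANCE and FANCF, which form the module that brings in the substrate, held the 1 member that fell and the 2 that did not pass. FANCF had 27.4, 23.9 and 25.6 CPM in shCtrl and 17.1, 17.3 and 16.8 CPM in shAC007128.1, at -0.58 ± 0.10 (edgeR adjusted p = 0.00286). The treated samples were close to each other and all under the controls. FANCC, at 36.0, 37.4 and 36.2 CPM against 36.6, 38.5 and 38.4 CPM, overlapped (0.05 ± 0.08, edgeR adjusted p = 0.645). FANCE, at 25.8, 26.7 and 25.9 CPM against 28.7, 25.9 and 24.7 CPM, overlapped too (0.02 ± 0.10, edgeR adjusted p = 0.911). FANCE and FANCC took small negative values under library-size scaling, and neither passed there.

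The clamp that the core complex marks rose in both subunits. FANCI had 85.6, 89.1 and 90.3 CPM in shCtrl and 174.8, 185.6 and 209.5 CPM in shAC007128.1, at 1.10 ± 0.09 (edgeR adjusted p = 0.00011). FANCD2 had 45.5, 49.1 and 49.4 CPM against 81.2, 91.9 and 98.9 CPM, at 0.92 ± 0.10 (edgeR adjusted p = 0.000383). No treated sample of either gene overlapped a control, and 27% of all tested genes lay apart and higher. FANCD2 missed only the fold limit.

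Among the 6 checkpoint genes, WEE1 and CHEK1 were called higher, beside 5.57% of all tested genes. The other 4 did not pass, and the median log2 fold change was 0.15. WEE1, the kinase that holds CDK1 inactive, had 34.6, 31.8 and 43.1 CPM in shCtrl and 107.4, 121.5 and 113.1 CPM in shAC007128.1, at 1.64 ± 0.13 (edgeR adjusted p = 0.000109). CHEK1, the effector of ATR, had 26.3, 27.8 and 26.4 CPM against 53.4, 57.9 and 63.2 CPM, at 1.12 ± 0.09 (edgeR adjusted p = 0.000143). Both genes separated the groups completely, as did 27% of all tested genes in the higher direction. CHEK2, the effector of ATM, overlapped between groups, at 28.7, 28.9 and 28.8 CPM against 29.6, 26.7 and 30.5 CPM (0.01 ± 0.09, edgeR adjusted p = 0.96).

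The kinases at the top of both arms overlapped between groups. ATM, which answers breaks, had 97.9, 84.0 and 104.0 CPM in shCtrl and 81.7, 85.9 and 111.1 CPM in shAC007128.1 (-0.04 ± 0.14, edgeR adjusted p = 0.855). ATR, which answers single-stranded DNA, ran from 79.9 to 87.9 CPM and from 87.0 to 114.1 CPM (0.20 ± 0.11, edgeR adjusted p = 0.203). ATRIP, the subunit that recruits ATR, ran from 11.1 to 15.5 CPM and from 10.6 to 16.6 CPM (0.10 ± 0.20, edgeR adjusted p = 0.732) and shares 26.7% of its exonic bases with TREX1.

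Levels between genes were compared per length, as TPM (transcripts per 1000000) on the canonical transcript. In shCtrl the lowest mean TPM was that of FANCM, 1.76 ± 0.0443 (SD, n = 3), followed by POLQ at 3.50 ± 0.312 and BRIP1 at 3.81 ± 0.0862. The highest were RBBP8 at 54.2 ± 0.995 and UBE2T at 50.8 ± 3.14, a gap close to the spread of UBE2T. In shAC007128.1 UBE2T stood at 135 ± 16.4 and FANCI at 81.2 ± 8.30, ahead of RBBP8 at 46.3 ± 3.43. FANCM reached 6.33 ± 0.416 and POLQ 13.2 ± 1.60 TPM there, so the scarcest control transcripts stayed well under UBE2T.

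Ratios within a sample show whether partners moved in step. BRCA1 to BARD1, which act as a dimer, stood at 1.69, 1.82 and 1.78 in shCtrl and 2.11, 1.96 and 1.30 in shAC007128.1 on the TPM scale. The ratio overlapped between groups (log2 change -0.01), and its widest value was the low one of treated replicate 3. ATR to ATRIP also overlapped, at 3.19–4.41 and 3.13–6.03. FANCI to FANCD2 shifted a little without overlap, from 1.95–2.02 to 2.18–2.32, a log2 change of 0.19, and RMI1 to RMI2 from 0.493–0.510 to 0.528–0.604, a log2 change of 0.18.

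Partners in other pairs moved apart by more. MRE11 to RAD50 went from 0.687, 0.625 and 0.652 to 0.910, 1.11 and 1.12, a log2 change of 0.67, with no overlap. This ratio is uncertain because RAD50 shares 76.9% of its exonic bases with the read-through gene. BRCA2 to PALB2 went from 0.372, 0.374 and 0.438 to 0.739, 0.905 and 0.772, a log2 change of 1.03, again with no overlap. Over these 6 pairs the exact two-sided permutation p was 0.1 for the 4 that did not overlap, the smallest that 3 against 3 samples allow, and 0.15 after Benjamini-Hochberg adjustment, so none could pass. In contrasts picked after their values were seen, and therefore not tested, FANCM to FANCF changed by 2.46 on the log2 scale, FANCB to FANCC by 1.76, XRCC2 to RAD51D by 1.55 and CHEK1 to CHEK2 by 1.11.

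**Figure D3:**
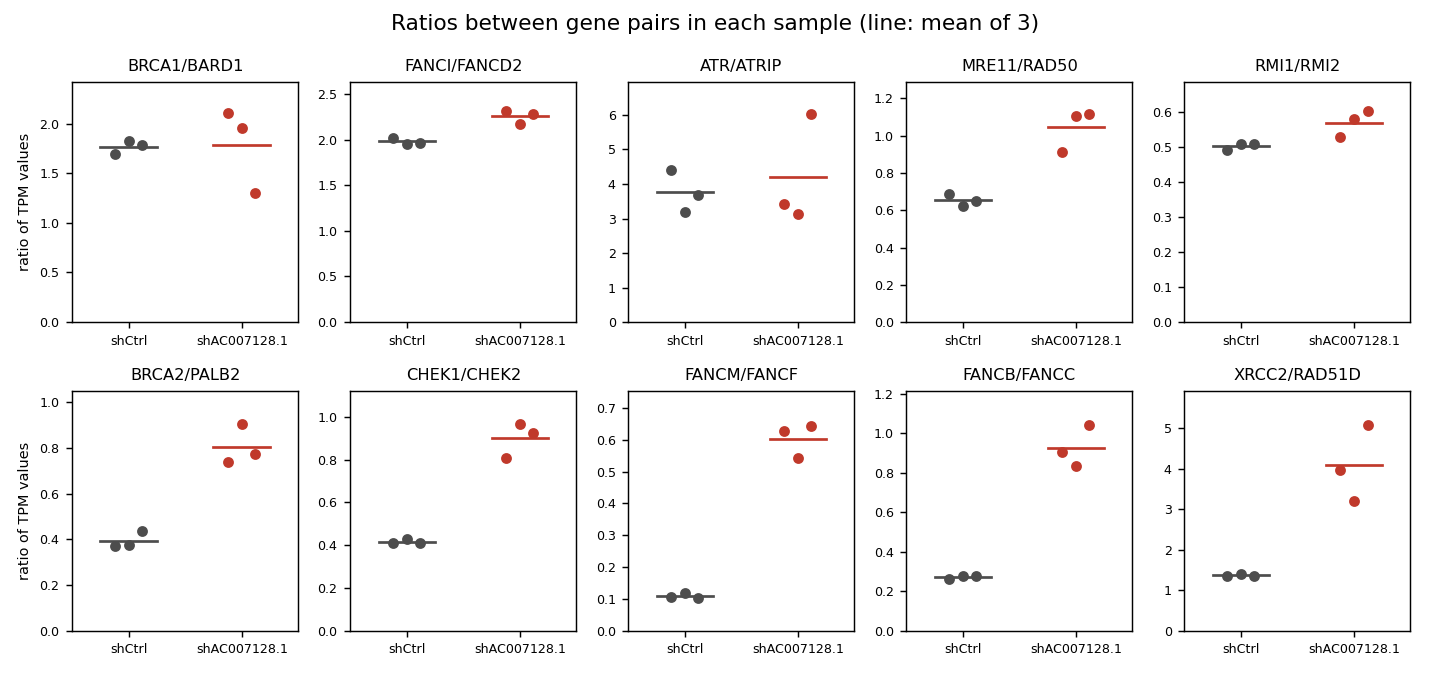
Ratio of TPM values (y axes, linear from 0) between the named genes in each shCtrl (grey) and shAC007128.1 (red) sample, with lines at the mean of 3. BRCA1/BARD1 and ATR/ATRIP overlap between groups, and the other 8 ratios are higher in every treated sample.

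The rest of the recombination and Fanconi genes, a list of 48 of which 47 were tested, rose in part. In this list 22 rose at any fold and 4 fell, with 7 called higher, 1 called lower and a median of 0.41. RPA1, which coats single-stranded DNA, rose by 1.17 ± 0.06 and RFWD3, a ligase that clears proteins from damaged sites, by 1.45 ± 0.08. ZSWIM7, a subunit of the Shu complex, was the one called lower, from 15.3–18.7 CPM to 6.85–8.95 CPM (-1.13 ± 0.15, edgeR adjusted p = 0.00108). Of 28 other damage checkpoint genes, 22 rose at any fold, 8 of them called, and none passed in the lower direction, where 0 also had an unadjusted p under 0.05, with a median of 0.63. CDC25A, the phosphatase that opposes WEE1, rose by 2.06 ± 0.16, CLSPN, the adaptor for CHEK1 activation, by 1.71 ± 0.08, and PLK1, which ends the G2 checkpoint, by 1.23 ± 0.07.

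Lists of other repair routes had medians from 0.03 to 0.23. Beside the counts in these and the other lists, 21% of all tested genes rose and 19.8% fell at any fold. By edgeR 5.57% of all tested genes were called higher and 10.1% lower. Of 12 non-homologous end joining genes 3 rose and 2 fell, and none was called in either direction by edgeR, DESeq2 or limma-voom, with 4 higher and 4 lower at an unadjusted p under 0.05 and a median of 0.19. XRCC6 and XRCC5, the Ku subunits that cap broken ends, rose by 0.74 ± 0.06 and 0.35 ± 0.09, and DCLRE1C, the nuclease Artemis, fell by 0.41 on the log2 scale. In nucleotide excision repair 7 of 21 genes rose and 6 fell, with a median of 0.03. There CETN2 rose by 1.51 ± 0.13 and MNAT1 by 0.81 ± 0.11, while XPC, the damage sensor, fell by 0.54 on the log2 scale. In base excision repair 7 of 22 rose and 1 fell, with a median of 0.23, and the 3 called were LIG1 and FEN1, which also join Okazaki fragments, and NEIL3, at 1.25, 1.05 and 1.46. In mismatch repair 3 of 7 rose, among them MSH6 by 0.62 ± 0.19 and MSH3 by 0.54 ± 0.12, with a median of 0.14.

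Cell-cycle genes moved with the recombination genes. Of 38 S phase genes 36 rose, 25 of them called higher, with a median of 1.23. E2F8, MCM6 and PCNA led by p-value, at 2.31 ± 0.09, 1.95 ± 0.08 and 1.64 ± 0.07. All 33 G2 and mitosis genes rose, 23 of them called higher, with a median of 1.20, among them CCNA2 at 1.99 ± 0.10, CDCA8 at 1.24 ± 0.07 and KIF20A at 1.37 ± 0.08. The summed CPM of the S phase list went from 1934–1983 to 4244–4418 and that of the G2 and mitosis list from 2703–2792 to 6323–7191. Among 21 tested p53 target genes 4 rose and 7 fell, 4 of the latter called lower. SESN2, CDKN1A, GADD45A and AEN stood at -2.17 ± 0.10, -1.72 ± 0.10, -1.76 ± 0.15 and -1.01 ± 0.11. The part of the cell-cycle genes in the values of the 39 repair genes was not tested.

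**Figure D4:**
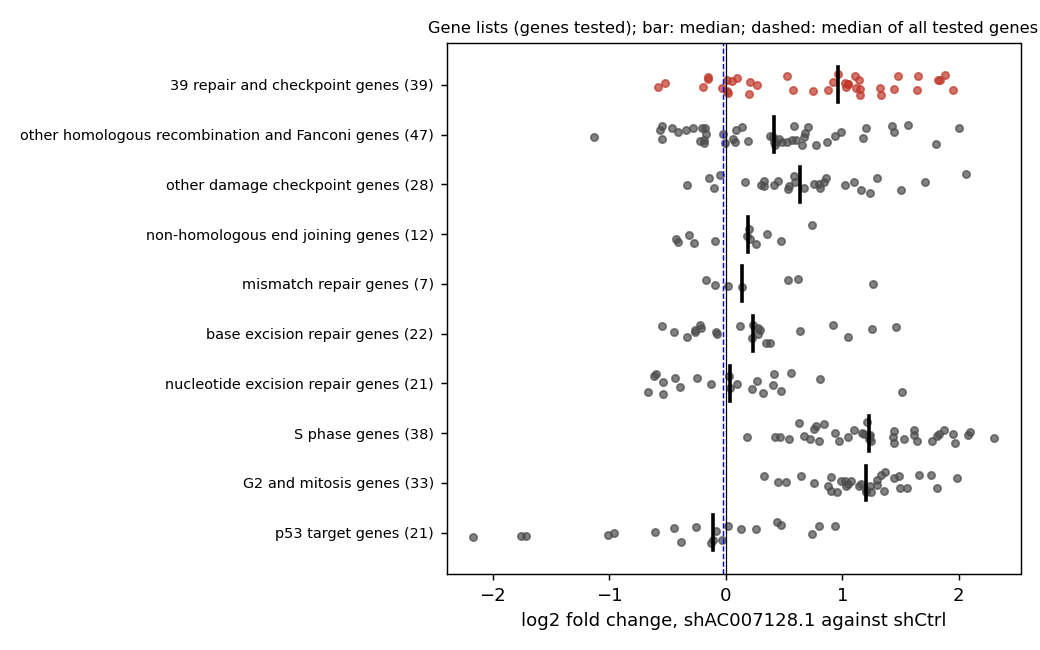
Log2 fold change of shAC007128.1 against shCtrl (x axis) for each tested gene (points) of the 39 repair genes (red) and 9 other lists (grey), with black bars at list medians and a dashed line at the median of all tested genes, -0.02. The median of the 39 genes, 0.96, lies between those of the end joining list (0.19) and the S phase list (1.23).

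Promoter sequence was set beside these changes. The E2F core was found in 19 of 34 member windows (55.9%) and in 13% of all 35116 windows. These sets are unlike. Each member has a single window, nearest its canonical start, while the full set holds every window and is not limited to tested genes. Among members called higher 12 of 16 windows held it, and among those that did not rise 4 of 13 did. The median log2 fold change was 1.05 over the 19 members with a core and 0.21 over the 15 without. Members of either kind stood on both sides, since FANCM, FANCB, UBE2T and CHEK1 were called higher without a core, and FANCC, FANCE, RAD51D and FANCF held one and did not rise. The CHEK1 and RAD51B windows lie 1061 and 3762 bases from the canonical starts used for TPM, so those windows describe another start.

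**Figure D5:**
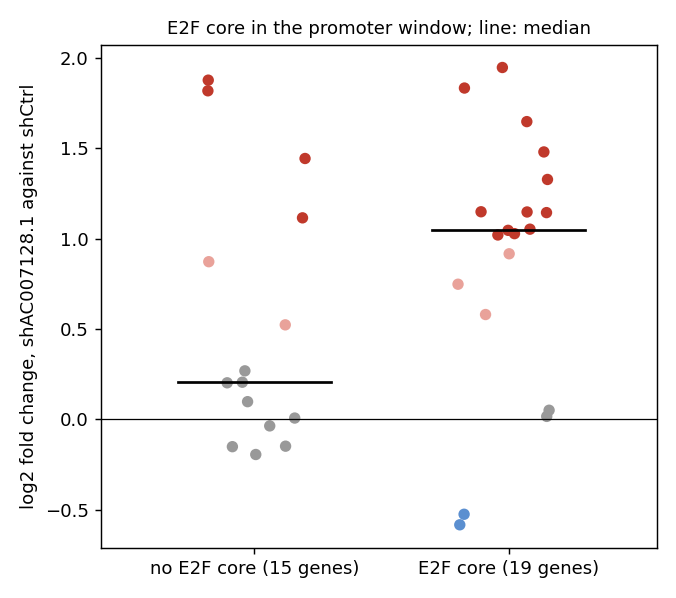
Log2 fold change of shAC007128.1 against shCtrl (y axis) for the 34 members with a promoter window, split by whether the window holds an E2F core (x axis), with lines at the medians of 0.21 (15 genes) and 1.05 (19 genes). Colours are red for called higher, pale red for higher under the fold limit, blue for lower under the fold limit and grey for not passed.

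Other elements showed smaller contrasts with all windows. The CHR element TTTGAA, a mark of G2 genes, was in 5 of 34 member windows (14.7%) and 15.2% of all, and CCAAT in 16 (47.1%) and 34.6%. The GC box GGGCGG was in 26 (76.5%) and 45% of all windows. CCAAT was in 9 of the 16 called higher and 5 of the 13 that did not rise, and the GC box in 14 and 8. Here too a single window per member is set beside every window. Both strands were read, and each element could overlap another.

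Genes that start head to head with a member, within 1000 bases on the opposite strand, were checked for the same direction. There were 10 members with 11 such protein-coding neighbours, of which 9 were tested. At any fold 3 of the 9 rose, beside 21% of all tested genes, and the others did not pass. FANCB rose by 1.82 and RAD51AP1 by 1.33, while their neighbours MOSPD2 and C12orf4 stood at 0.26 ± 0.14 and -0.02 ± 0.11 and did not pass. The reverse held for ATM, which overlapped between groups while NPAT, a regulator of histone genes that starts 429 bases away, rose by 0.91 ± 0.13. HNRNPK beside RMI1 rose by 0.59 ± 0.06, and ZFYVE21 beside XRCC3 by 1.43 ± 0.09, the single neighbour called higher.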

How the data were processed

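RNA was sequenced from 3 shCtrl and 3 shAC007128.1 samples of KYSE150. The authors deposited 1 table of counts per Ensembl gene, treated here as estimated counts, whole as deposited and not normalised. The submitters' processing notes name CASAVA 1.8 and TopHat2 2.0.6 with the builds GRCh38 and mm10, and the study's methods name TopHat, Cufflinks and hg38. The counting program, annotation release and use of strand are not given in the sources used here, so counts of genes that share exons are uncertain. RAD50, XRCC3, RAD54B and ATRIP, with the largest shared parts, are named above with those parts. RAD54L (19.9%, with LRRC41), FANCA (19.6%, with ZNF276) and CHEK1 (13.4%) also share exonic bases, mainly with genes on the opposite strand. Their values carry the same limit, and the remaining members share smaller parts or none. Among low counts, 4 was favoured over its neighbours (1355 genes in shCtrl replicate 1, against 761 with 3 and 993 with 5), so a count may not be 1 independent fragment.

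Genes were tested with edgeR 4.0.16 (R 4.3.3) by glmQLFit and glmQLFTest, with filterByExpr, TMM factors of 0.967 to 1.042 and Benjamini-Hochberg adjustment over 19254 identifiers. Genes were called where the adjusted p did not exceed 0.05 and the log2 fold change reached 1 either way, which are the study's limits (its Cuffdiff test needs alignments). The standard error is the log2 fold change divided by the square root of F. TPM used canonical transcripts of GENCODE 44, which held 60357 of the 67140 identifiers. With 3 counts worth 0.0382 to 0.0538 CPM, the members, at 4.44 CPM or more, lay well above what depth limits. The script was tested on simulated counts. Tests of ratios were exact permutations. DESeq2 1.42.0, limma-voom (limma 3.58.1), other scalings, filters, thinning, glmTreat and leave-one-out were tried.

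Sample values were given for the 2 members of smallest p in each role and those with a negative log2 fold change. They were also given for the paralogs RAD51B, RAD51C, RAD51D, XRCC2 and XRCC3, with other members by range or in full where space allowed. In most other lists genes were named from those of smallest p or called lower, up to 3 by p. These have mostly a log2 fold change without sample values. Some genes of the other lists are not reported here by name. Members and lists were chosen with earlier results of these data known.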

Additional observations from a re-analysis of the deposited data

How the results depend on the processing

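Under DESeq2, limma-voom, RLE or library-size scaling, dropping the filter, a floor of 10 counts per sample, counts divided by 4, thinned libraries, a replicate block, glmTreat against a 1.5-fold change and each sample left out in turn, 15 to 22 members were called higher (lowest with library-size scaling, highest with glmTreat), none lower, and 25 rose at any fold wherever that was counted. Of the 19 members called higher, 14 were called in every setting and 0 changed sign. BRCA1 lost the call in 8 settings (0.95 to 0.99), XRCC2 in 4, BARD1 and FANCG in 3 each and RMI1 in 1, while RMI2 gained it without shAC007128.1 replicate 2, at 1.03. With glmTreat the log2 fold limit of 1 was not applied, so its 22 include members under that limit. Under the same rule 1 non-homologous end joining gene was called higher. Members that fell at any fold numbered 2, or 3 under library-size scaling and with at least 10 counts. With a sample left out they numbered 2 to 4. Without shAC007128.1 replicate 3 they numbered 4, RBBP8 and PALB2 joining RAD51D and FANCF. RBBP8 also passed under library-size scaling and with at least 10 counts. The median log2 fold change of 0.96 was 0.89 with library-size scaling and 0.85 to 0.99 with a sample left out, lowest without shAC007128.1 replicate 3. The median of all tested genes moved from -0.02 to -0.13 under DESeq2 and -0.15 with no filter.

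Only members near 0 changed sign, and none of these passed. NBN was -0.014 under DESeq2, -0.022 with at least 10 counts, -0.0085 with counts divided by 4, -0.064 with library-size scaling, -0.032 with no filter and -0.10 to 0.11 with a sample left out. FANCE was -0.011, -0.018, -0.0041, -0.058, -0.028 and -0.050 to 0.055 in the same order. CHEK2 was -0.019, -0.027, -0.012, -0.068, -0.037 and -0.042 to 0.064, and -0.0022 with RLE. FANCC was -0.024 with library-size scaling, ATM -0.19 to 0.047 and ATRIP -0.052 to 0.25 with a sample left out. The cause of these shifts was not tested.

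Same-numbered replicates did not deviate together (correlations of deviations 0.0306, -0.0254 and -0.0299), so the replicate block, under which the same 19 members were called and the median was 0.95, is only an alternative. AC007128.1 had -0.82 with the block and -1.29 to -0.51 with a sample left out, and passed in none. Its 15 to 69 counts limit what can be said of the knockdown. The study itself reported by qPCR that the hairpin lowered AC007128.1, a measurement made apart from these counts.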
